A study of Homo sapiens with 8 samples.

Results

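The genes encoding subunits of the Polycomb and trithorax complexes were followed through depletion of each TET enzyme in human embryonic carcinoma cells. The set was listed by name, from the known subunits of Polycomb repressive complex 2 (PRC2), Polycomb repressive complex 1 (PRC1) and the KMT2 histone methyltransferase complexes of the trithorax group. Of the 38 listed genes, 35 had a transcript cluster, a group of probes on the array, that carried their symbol alone, out of 18417 genes measured in this way. RNF2 and CBX8 had no such cluster and the BMI1 cluster also carried the readthrough gene COMMD3-BMI1, so these 3 genes are not analysed here. RNA came from NCCIT, a pluripotent cell line of a germ cell tumour, after transfection of a pool of siRNAs against the TET1 transcript (siTET1), the TET2 transcript (siTET2) or the TET3 transcript (siTET3), or of a non-targeting control siRNA (siNTC). Each of the 4 groups was profiled on 2 Affymetrix Human Gene 1.0 ST arrays, and every comparison with siNTC used the same 2 control arrays. The cells were undifferentiated, and the depletion was transient and partial. The labels do not state whether the 2 replicates of a group came from separate cultures, and the p-values therefore reflect the spread between arrays alone. Levels are log2 intensities, a difference of 1 being a doubling, and a gene was called higher or lower at an adjusted p under 0.05 in a limma fit over all genes.

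Polycomb and trithorax proteins keep developmental genes off or on through marks on histones. PRC2 methylates histone H3 at the lysine that marks silenced genes, and PRC1 attaches ubiquitin to histone H2A. The KMT2 enzymes methylate histone H3 at another lysine, at active promoters and enhancers, and share a core of WDR5, RBBP5, ASH2L and DPY30. In pluripotent cells these opposing marks lie together on many developmental promoters, most of which are CpG islands, and the TET enzymes, which oxidise methylated cytosine, occupy many of the same islands. The comparison asks whether the transcripts of the machinery itself moved when a TET was depleted.

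The siRNAs lowered their own targets, which checks the labels. TET1 was at 10.62 and 10.53 in siNTC and 9.91 and 9.87 in siTET1, 62.3% of control. TET2 was at 7.71 and 7.91 in siNTC and 6.95 and 6.92 in siTET2 (54.4% of control), and TET3 at 7.74 and 7.30 in siNTC and 6.23 and 6.66 in siTET3 (47.4%). Untargeted TETs moved too: TET1 was lower in siTET2 (-0.30 ± 0.048 SE) and higher in siTET3 (0.42 ± 0.048), and TET2 was lower in siTET3 (-0.47 ± 0.095), so each comparison is of a siRNA and not of 1 TET alone. Over transcript clusters the correlation was 0.9975 to 0.9989 between replicate arrays and 0.9894 to 0.9914 between an siNTC and a depletion array. Between arrays of different depletions it was 0.9954 to 0.9977, so the depletions were closer to each other than to siNTC. Because they share the control arrays, a change common to all depletions cannot be told apart from a difference of those arrays. Of 8 listed markers of pluripotent embryonic carcinoma, 6 were measured (SOX2, LIN28A, SALL4, DNMT3B, DPPA4 and TNFRSF8), and all 6 were above background on all 8 arrays. Their changes in the mean of the depletions ran from -0.21 (SALL4) to 0.14 (DPPA4). Of 8 markers of differentiated lineages, all measured, 5 were above background in the mean of all arrays, while PAX6 and SOX17 were below it on all 8. The lineage factor HAND1 fell in every depletion (-0.88 ± 0.080 in their mean), and GATA6 rose in siTET3 (0.53 ± 0.11). GATA6 was also called higher in siTET2 (0.34), a call lost without any 1 of the 4 arrays compared, and in the mean of the depletions, a call lost without siNTC replicate 1 (0.33), and its siTET1 value of 0.25 did not pass the test. The part of these markers in the results that follow was not tested. In bulk RNA, fewer cells of a type and less RNA per cell cannot be told apart.

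Most Polycomb and trithorax genes, like most genes above background, were past the test in at least 1 depletion, in both directions and by little. In siTET1, 12 of the 35 were higher and 10 lower, against 15.6% of all genes called higher and 18.7% called lower. In siTET2, 12 were higher and 7 lower (14.4% and 21.8% of all genes), and in siTET3 11 were higher and 10 lower (13.8% and 22.3%). The share of members past the test was thus 62.9%, 54.3% and 60.0%, beside 45.4%, 48.0% and 47.8% of the 12749 genes above background. Their median changes were 0.068, 0.077 and 0.051, beside -0.031, -0.039 and -0.017 over all genes. In the mean of the 3 depletions 11 members were higher and 9 lower (16.5% and 24.2% of all genes, 22.6% and 30.4% of genes above background). There 57.1% of the members were past the test, near the 52.9% of genes above background. Only KMT2C in siTET2 and YAF2 in siTET3 changed at least 1.5-fold among the members called. In all, 26 members (74.3%) were past the test in at least 1 depletion and 9 in none, beside 64.0% of genes above background and 49.6% of all genes past it in at least 1. The 2 arrays of a group differed little, with a median SD of 0.0282 over 140 gene and group pairs. All members but PCGF5 were above background on all 8 arrays. PCGF5 was below it on all 8, and no change is given for it.

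**Figure D1:**
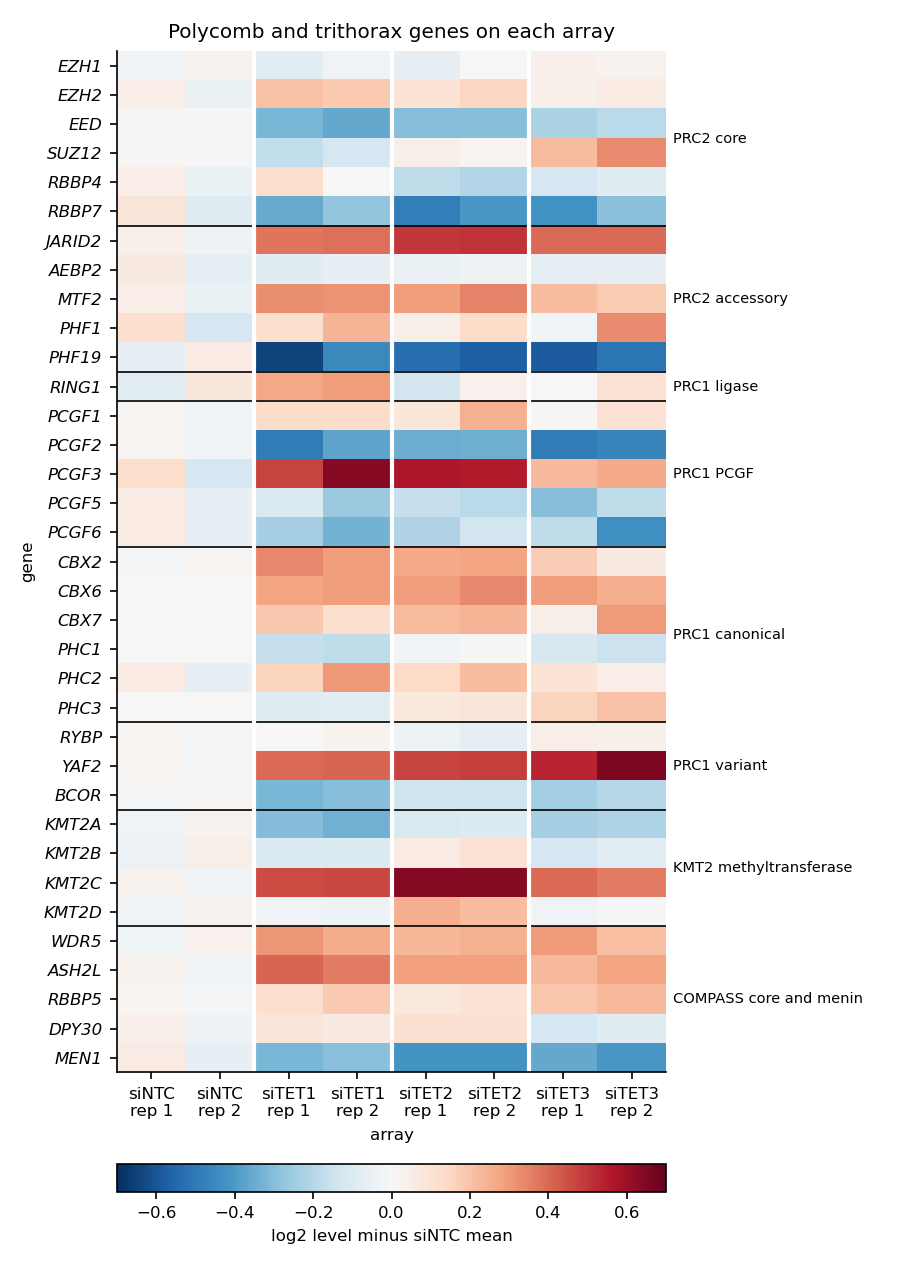
Log2 level of each of the 35 genes on each array (columns, 2 per group) minus the mean of the siNTC arrays, as colour (blue lower, red higher), with genes in rows grouped by role. Within most roles red and blue rows stand side by side, for example KMT2C (0.64 in siTET2) and KMT2A (-0.33 in siTET1). The colours of replicate arrays mostly match, but not for PHF1 in siTET3 (7.45 and 7.80, with a siNTC mean of 7.47), among others.

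**Figure D2:**
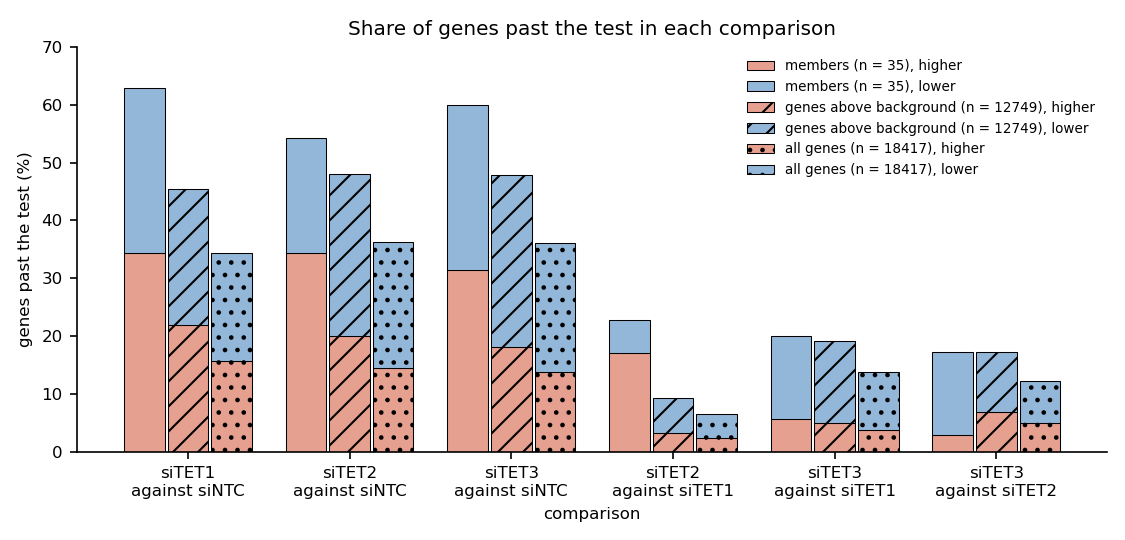
Percent of genes past the test (vertical axis, higher in red and lower in blue) in each comparison, for the 35 members, the 12749 genes above background and all 18417 genes. Against siNTC the members' bars reach 62.9%, 54.3% and 60.0%, and between depletions 22.9%, 20.0% and 17.1%.

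The enzymes of PRC2 moved less than some of its partners. EZH2, the main methyltransferase, was at 10.48 and 10.39 in siNTC, 10.64 and 10.62 in siTET1, 10.53 and 10.58 in siTET2 and 10.47 and 10.49 in siTET3. Its siTET1 arrays lay above both control arrays, its siTET2 arrays lay closer to them, and its siTET3 arrays overlapped them. It rose in siTET1 (0.20 ± 0.042, adjusted p = 0.00247) and in siTET2 (0.12 ± 0.042, adjusted p = 0.0360), where 5 of the 8 fits that left out 1 array lost the call, at 0.08 without siNTC replicate 2, as did the fit with no intensity trend. In siTET3 it was 0.05 ± 0.042, with an interval of -0.04 to 0.14. EZH1, the paralog known for weaker activity, was at 8.46 and 8.51 in siNTC, 8.41 and 8.46 in siTET1, 8.43 and 8.48 in siTET2 and 8.52 and 8.51 in siTET3. The siTET1 arrays lay just below the controls, the siTET2 and siTET3 arrays overlapped them and the siTET3 arrays lay just above the other depletions, and no EZH1 difference passed the test, with the 3 intervals within -0.17 to 0.15.

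The partners of the enzyme fell or split. EED, which binds the methylated histone and activates the enzyme, was at 9.51 and 9.49 in siNTC, 9.18 and 9.14 in siTET1, 9.20 and 9.20 in siTET2 and 9.28 and 9.31 in siTET3. All 6 depletion arrays lay below both controls. EED fell by 0.35 in siTET1, 0.31 in siTET2 (both ± 0.047) and 0.21 in siTET3, with adjusted p of 6.96e-05, 0.000163 and 0.00346. RBBP7, a histone chaperone of PRC2 and of deacetylase complexes, was at 11.86 and 11.69 in siNTC, 11.42 and 11.50 in siTET1, 11.29 and 11.37 in siTET2 and 11.35 and 11.48 in siTET3. No depletion array reached a control array. The fall was to 80.4%, 73.4% and 78.0% of control, with adjusted p of 0.00078, 4.18e-05 and 0.000259. RBBP4, the close paralog of RBBP7, fell by 0.19 in siTET2 (± 0.041, adjusted p = 0.0026), a call lost with no intensity trend (adjusted p = 0.0525). The siTET1 value of 0.07 and the siTET3 value of -0.10 did not pass the test.

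SUZ12, the scaffold of PRC2, went both ways. It was at 10.87 and 10.85 in siNTC, 10.69 and 10.74 in siTET1, 10.90 and 10.88 in siTET2 and 11.08 and 11.19 in siTET3. The siTET1 arrays lay below the controls and the siTET3 arrays above them. SUZ12 fell by 0.15 in siTET1 (± 0.043, adjusted p = 0.0180), was 0.03 in siTET2 and rose by 0.27 in siTET3 (adjusted p = 0.000211). The fall in siTET1 lost its call without siTET1 replicate 1 (-0.12), without siNTC replicate 1 (-0.13) and in the fit with no intensity trend (adjusted p = 0.1), and it was -0.26 with the change of the neighbouring genes subtracted. SUZ12 and KMT2C have partial copies elsewhere in the genome, and which copy a probe reports was not resolved here.

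The accessory subunits, which steer PRC2 to its targets, gave the largest PRC2 changes. JARID2, which brings PRC2 to chromatin in pluripotent cells, was at 11.67 and 11.60 in siNTC, 12.01 and 12.02 in siTET1, 12.13 and 12.14 in siTET2 and 12.03 and 12.03 in siTET3. Every depletion array stood above both controls by more than the replicates differed. It rose 1.30-fold, 1.41-fold and 1.31-fold, with adjusted p of 1.59e-06, 1.27e-07 and 1.14e-06.

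MTF2, PHF19 and PHF1 are the 3 Polycomb-like proteins, which bind CpG-rich DNA. MTF2 was at 11.12 and 11.03 in siNTC, 11.40 and 11.39 in siTET1, 11.37 and 11.42 in siTET2 and 11.29 and 11.25 in siTET3, above control on all 6 depletion arrays. It rose by 0.32, 0.32 and 0.20 (each ± 0.040, the highest adjusted p 0.00157). The median change of its 24 nearest genes above background was 0.13 in the mean of the depletions, and with it subtracted the MTF2 changes were 0.16, 0.17 and 0.12, still past the test. PHF19 was at 7.39 and 7.51 in siNTC, 6.80 and 7.0 in siTET1, 6.92 and 6.88 in siTET2 and 6.87 and 6.94 in siTET3. All depletion arrays lay below both controls, and the depletions overlapped one another. PHF19 fell by 0.55 in each depletion, to 68.2%, 68.3% and 68.4% of control (adjusted p of 0.000309, 0.000293 and 0.000306). PHF1 did not pass the test in any comparison, with changes of 0.17, 0.08 and 0.16 and intervals reaching from -0.16 to 0.41, although without siTET3 replicate 1 its siTET3 value was 0.33 and passed (adjusted p = 0.029). The accessory subunit AEBP2 did not pass either (-0.07, -0.04 and -0.06), except without siNTC replicate 2 (-0.13 in siTET1 and -0.12 in siTET3). Subtracting its neighbours turned the siTET3 value to 0.16.

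Over the 11 PRC2 genes, 3 were higher and 4 lower in siTET1 and again in siTET2, and 3 were higher and 3 lower in siTET3. These 7, 7 and 6 of 11 stand beside 45.4%, 48.0% and 47.8% of genes above background past the test in siTET1, siTET2 and siTET3. Their median changes were -0.05, -0.03 and 0.03.

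**Figure D3:**
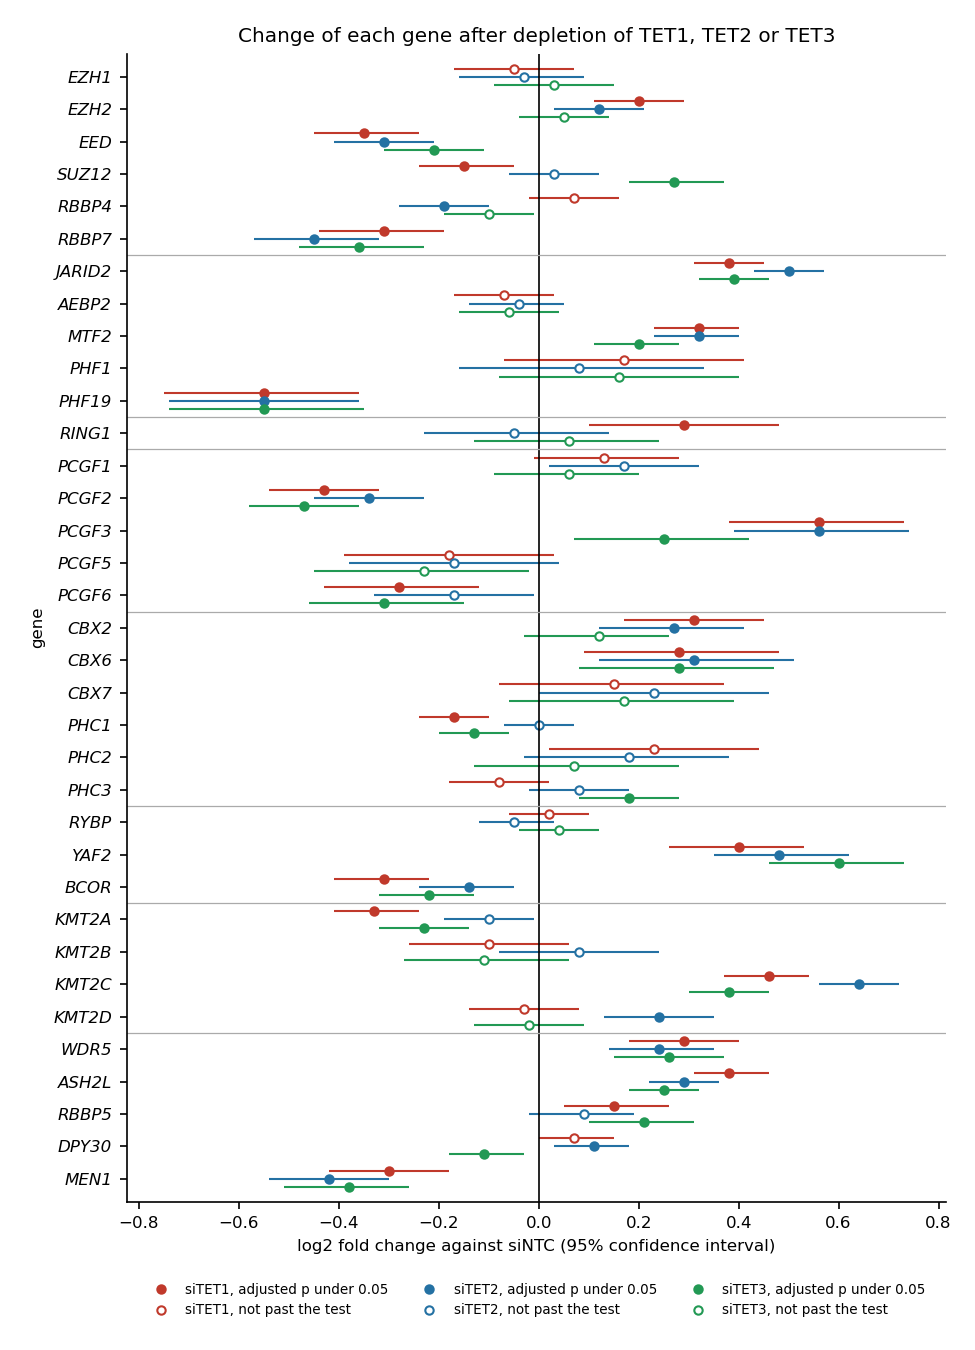
Log2 fold change of each gene against siNTC (horizontal axis; lines, 95% confidence intervals) in siTET1, siTET2 and siTET3. Filled points passed the test, with the largest rise at 0.64 (KMT2C in siTET2) and the largest falls at -0.55 (PHF19 in all 3 depletions), and PCGF5 is drawn although it was below background on all arrays.

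In PRC1 the ubiquitin ligase subunit RING1 was at 7.19 and 7.35 in siNTC, 7.54 and 7.56 in siTET1, 7.14 and 7.30 in siTET2 and 7.27 and 7.37 in siTET3. Only its siTET1 arrays lay clear of the controls. RING1 rose by 0.29 in siTET1 (± 0.086, adjusted p = 0.0195), a call lost without siTET1 replicate 1 (0.30), siTET1 replicate 2 (0.28) or siNTC replicate 1 (0.21). It was -0.05 in siTET2 and 0.06 in siTET3. Subtracting the change of its 24 neighbouring genes, -0.18 in the mean of the depletions, moved the siTET3 value to 0.28 with an adjusted p of 0.0238. The ligase partner RNF2 is not analysed here.

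The PCGF proteins pair with the ligase and define which PRC1 is formed, and they moved apart. PCGF2, of the canonical complexes that also hold a CBX and a PHC protein, was at 9.87 and 9.83 in siNTC, 9.36 and 9.48 in siTET1, 9.50 and 9.51 in siTET2 and 9.36 and 9.39 in siTET3. All depletion arrays lay below the controls. It fell to 74.4%, 78.8% and 72.0% of control, with adjusted p of 2.28e-05, 0.000126 and 8.49e-06. PCGF3, of a variant complex without CBX proteins, was at 8.07 and 7.82 in siNTC, 8.42 and 8.58 in siTET1, 8.51 and 8.5 in siTET2 and 8.17 and 8.21 in siTET3. It was above control on every depletion array, and its siNTC arrays lay further apart than most. PCGF3 rose 1.47-fold, 1.48-fold and 1.19-fold (adjusted p of 0.000141, 0.000116 and 0.0313). The rise in siTET3 was 0.12 without siNTC replicate 2 (adjusted p = 0.286) and also lost its call without either siTET3 array or either siTET2 array, in the fit of the 4 arrays alone (adjusted p = 0.0712) and with no intensity trend (adjusted p = 0.0714).

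PCGF6, of the variant complex that also holds MAX, MGA and L3MBTL2, fell in siTET1 (-0.28 ± 0.072) and siTET3 (-0.31 ± 0.072) and was -0.17 in siTET2 (adjusted p = 0.0842). The siTET2 value passed the test with the replicate block (adjusted p = 0.0478) and in 5 other fits. Without siTET3 replicate 2 the siTET3 value was -0.18. The siTET1 call was lost without siTET1 replicate 2 (-0.23), without siNTC replicate 1 (-0.21) and with no intensity trend. The siTET3 call was lost without siNTC replicate 1 (-0.24). PCGF6 had 2 clusters, and the changes above are those of the brighter. With both averaged the siTET2 value was -0.22 and passed the test (adjusted p = 0.0229). The dimmer PCGF6 cluster was at 8.9999 and 8.9443 in siNTC and between 8.4939 and 8.727 on the depletion arrays. Which sequence each cluster reports was not resolved here. PCGF1, of the variant complex of KDM2B and BCOR, was 0.13, 0.17 and 0.06 and did not pass the test, except in siTET2 without siTET2 replicate 1 (0.26) and with median centring (0.18).

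The promoters of 4 genes are shown as pairs of same-role genes, picked because they moved apart. They are PCGF3 and PCGF2 in PRC1 and KMT2C and KMT2A among the methyltransferases described further on. Other genes that moved apart within a role, such as MTF2 and PHF19, are not shown. Each run is the 250 bases upstream of the annotated start in RefSeq (assembly GRCh38.p14), read 5′ to 3′ on the strand of the gene, with every CG dinucleotide in capitals. PCGF3 lies at chr4:705582-705831 (plus strand), PCGF2 at chr17:38746629-38746878 (minus), KMT2C at chr7:152436004-152436253 (minus) and KMT2A at chr11:118436242-118436491 (plus).
PCGF3: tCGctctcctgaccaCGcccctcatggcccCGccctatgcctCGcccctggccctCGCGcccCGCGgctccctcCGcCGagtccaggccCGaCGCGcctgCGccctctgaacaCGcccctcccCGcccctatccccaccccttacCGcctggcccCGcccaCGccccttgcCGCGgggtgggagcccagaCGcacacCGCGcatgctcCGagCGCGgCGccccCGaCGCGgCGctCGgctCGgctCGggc
PCGF2: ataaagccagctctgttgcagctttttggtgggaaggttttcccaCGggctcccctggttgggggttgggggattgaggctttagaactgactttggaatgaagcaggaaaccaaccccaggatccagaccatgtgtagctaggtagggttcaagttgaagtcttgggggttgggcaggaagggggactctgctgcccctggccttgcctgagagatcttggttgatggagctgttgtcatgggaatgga
KMT2C: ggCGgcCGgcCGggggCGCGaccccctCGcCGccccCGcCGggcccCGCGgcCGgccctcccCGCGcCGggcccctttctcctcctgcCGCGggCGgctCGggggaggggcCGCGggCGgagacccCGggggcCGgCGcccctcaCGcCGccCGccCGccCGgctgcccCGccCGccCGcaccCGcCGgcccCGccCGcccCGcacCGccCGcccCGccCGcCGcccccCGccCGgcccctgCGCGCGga
KMT2A: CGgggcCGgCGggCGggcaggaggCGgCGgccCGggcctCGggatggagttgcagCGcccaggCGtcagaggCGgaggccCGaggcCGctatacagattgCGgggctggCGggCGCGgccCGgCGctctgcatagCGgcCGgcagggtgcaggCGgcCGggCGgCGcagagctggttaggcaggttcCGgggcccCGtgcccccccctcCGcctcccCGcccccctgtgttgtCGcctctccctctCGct

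The PCGF3 run held 35 CG dinucleotides and the PCGF2 run 1. KMT2C held 48 and KMT2A 31. The runs of MTF2, which rose, and PHF19, which fell, held 25 and 21. At least as many as in PCGF3 were found in 7.68% of the 14239 measured genes with a promoter sequence of this length, at least as many as in KMT2C in 0.323% and as in KMT2A in 14.6%. The 32 members with such a sequence had a median of 23, beside 21 over the 10138 measured genes above background. By direction in the mean of the depletions the median was 35 for the 9 genes that rose, 18 for the 9 that fell and 24.5 for the 14 not past the test, with ranges of 2 to 48, 1 to 40 and 12 to 41 that overlapped almost wholly. WDR5, which rose, had 2 and RBBP7, which fell, had 40. A gene can have other starts, and methylation of these runs was not measured on the arrays.

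Among the CBX and PHC genes of canonical PRC1, the largest changes past the test were rises of CBX2 and CBX6. CBX2, a chromodomain protein that reads the PRC2 mark, rose in siTET1 (0.31 ± 0.066) and siTET2 (0.27 ± 0.066) and was 0.12 in siTET3. With the change of its neighbouring genes subtracted these were 0.20 and 0.17, the latter no longer past the test (adjusted p = 0.0898). CBX6 was at 5.71 and 5.70 in siNTC and between 5.96 and 6.04 on the 6 depletion arrays, close above the background of 5.208. It rose by 0.28, 0.31 and 0.28 (± 0.090, adjusted p of 0.0274, 0.0148 and 0.0281), and leaving out 1 array of the 2 groups compared lost the call in 4 of 4 fits in siTET1 and siTET2 and in 3 of 4 in siTET3. CBX7 did not pass the test (0.15, 0.23 and 0.17).

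The PHC proteins, which polymerise and gather PRC1 into bodies, did not move together. PHC1 fell by 0.17 in siTET1 and by 0.13 in siTET3 and was -0.00 in siTET2. The siTET3 fall lost its call with median centring (-0.08), with no intensity trend and with the change of its neighbours subtracted (-0.06), which also ended the siTET1 call (-0.10). PHC3 rose in siTET3 (0.18 ± 0.046) and was -0.08 in siTET1 and 0.08 in siTET2, and the siTET3 call was lost when its 2 clusters were averaged (0.07), the other of which was near background, and when the change of its neighbours was subtracted (0.04), a fit in which the siTET1 value was -0.18 and passed the test (adjusted p = 0.0142). PHC2 did not pass the test (0.23, 0.18 and 0.07), except in siTET1 with no intensity trend (adjusted p = 0.044).

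Of the variant subunits, YAF2 rose and its paralog RYBP did not pass the test. YAF2, which binds the ligase in place of CBX proteins, was at 7.82 and 7.79 in siNTC, 8.20 and 8.21 in siTET1, 8.28 and 8.29 in siTET2 and 8.34 and 8.46 in siTET3. Each depletion array lay above the controls by well over the replicate spread. YAF2 rose 1.32-fold, 1.40-fold and 1.51-fold (adjusted p of 0.000242, 4.65e-05 and 7.39e-06). Its 24 neighbouring genes moved by 0.14 in the mean of the depletions, and with their change subtracted the siTET1 value was 0.26, still past the test. RYBP was 0.02, -0.05 and 0.04, with intervals within -0.12 to 0.12. BCOR, a corepressor that anchors the PCGF1 complex, fell by 0.31 in siTET1, 0.14 in siTET2 and 0.22 in siTET3, and the siTET2 call (adjusted p = 0.0222) was lost without any 1 of the 4 arrays compared.

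Over the 15 measured PRC1 genes, 5 were higher and 4 lower in siTET1, 4 higher and 2 lower in siTET2 and 4 higher and 4 lower in siTET3. These 9, 6 and 8 of 15 stand beside the same shares of genes above background (45.4%, 48.0% and 47.8%) in siTET1, siTET2 and siTET3.

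The 4 KMT2 methyltransferases diverged. KMT2C, which marks enhancers, was at 10.30 and 10.25 in siNTC, 10.73 and 10.74 in siTET1, 10.92 and 10.92 in siTET2 and 10.67 and 10.64 in siTET3. The 4 groups did not overlap at any point. KMT2C rose 1.37-fold, 1.56-fold and 1.30-fold (adjusted p of 1.15e-06, 4.98e-08 and 4.95e-06), the largest change of the set. KMT2D, the other enhancer enzyme, was at 9.0 and 9.05 in siNTC, 9.0 and 8.99 in siTET1, 9.28 and 9.24 in siTET2 and 9.0 and 9.01 in siTET3. Only the siTET2 arrays stood apart. KMT2D rose in siTET2 (0.24 ± 0.049, adjusted p = 0.00171), and with the change of its 24 neighbouring genes subtracted that value was 0.10 (adjusted p = 0.157), while -0.14 in siTET1 and -0.16 in siTET3 then passed the test.

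KMT2A, known for HOX gene control and for leukaemia translocations, was at 10.19 and 10.24 in siNTC, 9.91 and 9.88 in siTET1, 10.11 and 10.12 in siTET2 and 9.98 and 10.00 in siTET3. All depletion arrays lay below the controls, the siTET2 arrays nearest to them. KMT2A fell by 0.33 in siTET1 (± 0.041, adjusted p = 4.35e-05) and 0.23 in siTET3 (adjusted p = 0.000679) and was -0.10 in siTET2. A dimmer KMT2A cluster was at 6.64 and 6.85 in siNTC, 6.70 and 6.72 in siTET1 and 6.24 and 6.83 in siTET3. It did not fall beyond its spread in siTET1, and its siTET3 arrays lay far apart, below the controls on one array and between them on the other. With both clusters averaged neither call passed the test, at -0.18 in siTET1 and -0.22, near the value above, in siTET3, and with the change of the neighbouring genes subtracted KMT2A was -0.21 in siTET1 and -0.07 in siTET3, the latter no longer past the test. KMT2B, its closest paralog, was at 7.22 and 7.30 in siNTC, 7.16 and 7.16 in siTET1, 7.32 and 7.36 in siTET2 and 7.14 and 7.18 in siTET3. Its siTET2 arrays lay just above the controls and the others just below, and no KMT2B change passed the test, with intervals reaching from -0.27 to 0.24.

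**Figure D4:**
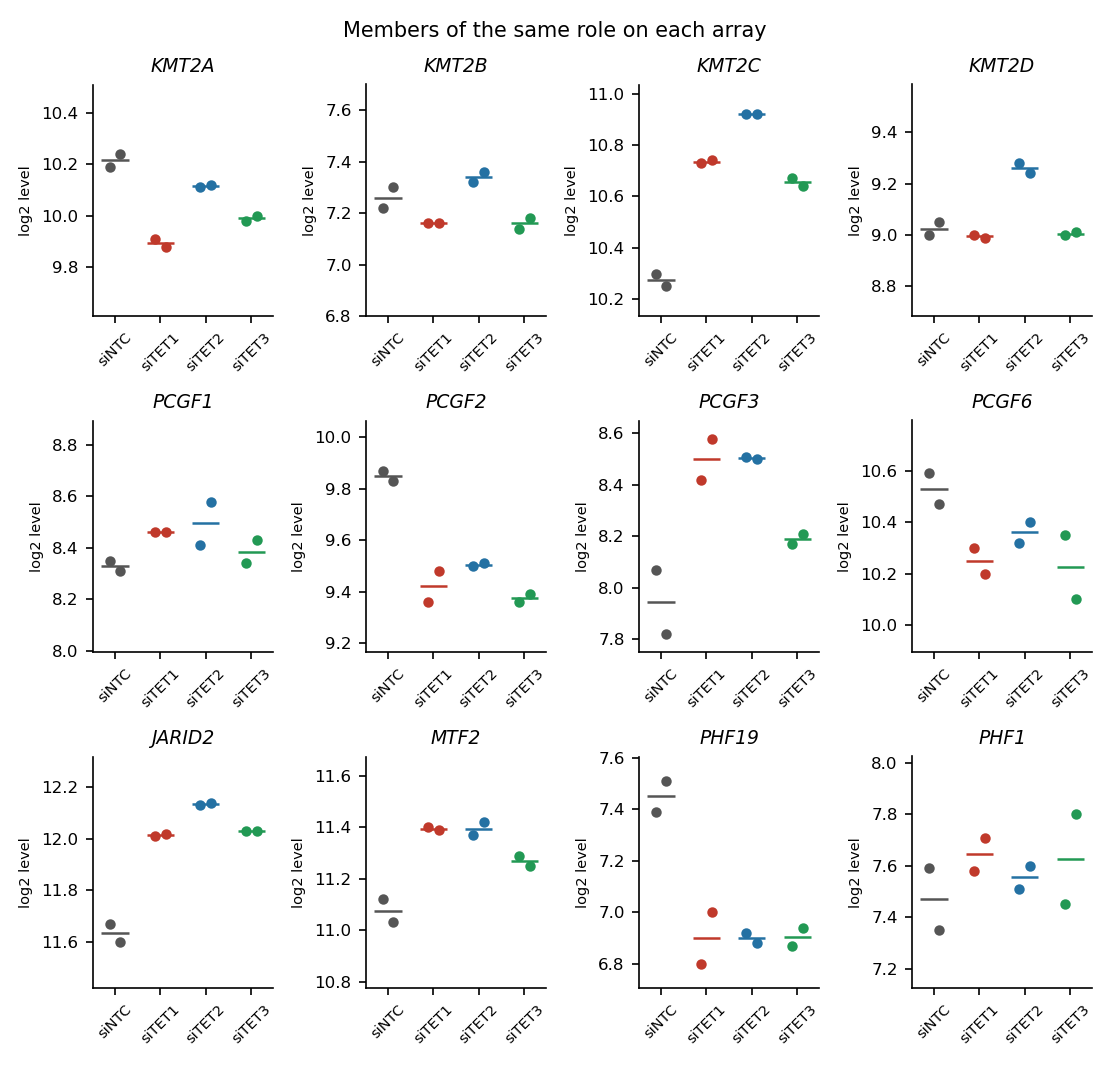
Log2 level (vertical axes, each spanning 0.9) of 12 genes on each array (points; bars, group means) in siNTC, siTET1, siTET2 and siTET3: the KMT2 methyltransferases, 4 PCGF genes, JARID2 and the 3 Polycomb-like genes. KMT2C, PCGF3, JARID2 and MTF2 lay above control in every depletion, and KMT2A, PCGF2 and PHF19 lay below it.

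Most of the shared core of the KMT2 complexes rose and menin fell. ASH2L, which with RBBP5 activates the enzyme, was at 12.08 and 12.03 in siNTC, 12.46 and 12.42 in siTET1, 12.34 and 12.34 in siTET2 and 12.28 and 12.33 in siTET3. All depletion arrays lay above both controls. ASH2L rose by 0.38, 0.29 and 0.25 (each ± 0.033, the highest adjusted p 5.73e-05). WDR5, the scaffold that also serves other complexes, rose by 0.29, 0.24 and 0.26 (± 0.049). RBBP5 rose in siTET1 (0.15 ± 0.049) and siTET3 (0.21 ± 0.049) and was 0.09 in siTET2; the siTET1 call was lost without siTET1 replicate 2 (0.11), without either siNTC array and with the neighbours subtracted (0.10).

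MEN1, the gene of menin, which tethers KMT2A and KMT2B to chromatin, was at 9.12 and 9.0 in siNTC, 8.74 and 8.77 in siTET1, 8.64 and 8.64 in siTET2 and 8.70 and 8.65 in siTET3. No depletion array reached a control array. It fell to 81.3%, 74.8% and 76.6% of control, with adjusted p of 0.00104, 6.53e-05 and 0.00014. DPY30, the smallest core subunit, was higher in siTET2 (0.11) and lower in siTET3 (-0.11). The siTET2 call was lost without either siTET2 array or without siNTC replicate 2 (0.07), and the siTET3 call with median centring (-0.06), without siTET3 replicate 1 (-0.09) and without siNTC replicate 1 (-0.07), among others. Over the 9 KMT2 complex genes, 4 were higher and 2 lower in siTET1, 5 higher and 1 lower in siTET2 and 4 higher and 3 lower in siTET3, so 6, 6 and 7 of 9 were past the test where 45.4%, 48.0% and 47.8% of genes above background were.

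Comparing the depletions with each other asks whether a subunit followed 1 TET more than another. Between siTET2 and siTET1, 6 members were higher in siTET2 and 2 lower, against 2.33% and 4.13% of all genes. Between siTET3 and siTET1, 2 were higher and 5 lower in siTET3 (3.82% and 9.94% of all genes), and between siTET3 and siTET2, 1 was higher and 5 lower (4.94% and 7.24%). As shares these are 22.9%, 20.0% and 17.1% of the members, beside 9.21%, 19.1% and 17.2% of genes above background, so that the last 2 were near the background. The counts depended on the fit. With no intensity trend 0, 2 and 2 members were past the test. Leaving out any 1 of the siTET1 and siTET2 arrays left 1 of the 8 calls between them, RBBP4, or 0 without siTET2 replicate 2. Between siTET3 and siTET1, 4 members were past the test without siTET1 replicate 1, siTET1 replicate 2 or siTET3 replicate 1. Between siTET3 and siTET2, 3 were without siTET2 replicate 1 and 4 without siTET2 replicate 2. The direction between siTET3 and siTET1 depended on the scaling as well, since quantile normalization and the subtraction of neighbours each gave 4 higher and 3 lower, and median centring 6 higher and 1 lower with 3 of the 7 calls shared.

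SUZ12 was the only member past the test in all 3 of these comparisons. It was 0.42 ± 0.043 higher in siTET3 than in siTET1 (adjusted p = 5.9e-05), 0.24 higher than in siTET2 (adjusted p = 0.00262) and 0.18 higher in siTET2 than in siTET1 (adjusted p = 0.0291). The 3 pairs of arrays did not overlap. The contrast of siTET3 with siTET1 passed the test in every alternative fit. KMT2C was 0.26 lower in siTET3 than in siTET2 (adjusted p = 0.00077) and 0.18 higher in siTET2 than in siTET1 (adjusted p = 0.0133). KMT2D, whose siTET1 and siTET3 arrays lay together, was 0.27 higher in siTET2 than in siTET1 (adjusted p = 0.00664) and 0.26 lower in siTET3 than in siTET2 (adjusted p = 0.00431).

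PCGF3 was lower in siTET3 than in siTET1 (-0.31 ± 0.082) and in siTET2 (-0.32 ± 0.082), with adjusted p of 0.0246 and 0.0233. With no intensity trend neither PCGF3 call passed (adjusted p of 0.0833 and 0.0877). The call against siTET1 was also lost without siTET1 replicate 2 (-0.23) or siTET3 replicate 1 (-0.29). The call against siTET2 was lost without either siTET2 array or without siTET3 replicate 1 (-0.29). DPY30 was likewise lower in siTET3, with -0.18 against siTET1 and -0.21 against siTET2 (adjusted p of 0.00419 and 0.00155), and these were -0.09, not past the test, and -0.12 with its neighbours subtracted. RBBP4 was lower in siTET2 (-0.26) and in siTET3 (-0.17) than in siTET1. PHC1 was higher in siTET2 than in siTET1 (0.17), and lower in siTET3 than in siTET2 (-0.13). With its neighbours subtracted these were 0.12 and -0.08, neither past the test. Median centring (-0.09) also ended the latter call. KMT2A (0.22) and BCOR (0.17) were higher in siTET2 than in siTET1, and RING1 was lower (-0.34 ± 0.086, adjusted p = 0.0373). PHC3 was higher in siTET3 than in siTET1 (0.26), and EZH2 (-0.15) and ASH2L (-0.13) were lower. With the clusters of each gene averaged, PHC3 was 0.08 and KMT2A 0.10 in these comparisons, neither past the test, and EZH2 lost its call with quantile normalization (-0.13) and median centring (-0.08). ASH2L lost its call under the same 2 scalings (-0.09 and -0.07), and RBBP4 in siTET3 lost its call with median centring (-0.10) and without siTET1 replicate 1 (-0.11). The other 22 members passed the test between no pair of depletions, among them PHF19, PCGF2 and MEN1, which passed it in no alternative fit either. Others lay close to the threshold. JARID2 was 0.12 higher in siTET2 than in siTET1 (adjusted p = 0.0535) and was at -0.11 in siTET3 against siTET2 (adjusted p = 0.0517), differences that passed in 9 and 5 alternative fits. YAF2 was 0.20 higher in siTET3 than in siTET1 (adjusted p = 0.0535) and passed in 4, among them quantile normalization (0.26) and median centring (0.26). EED, MTF2, RBBP7, PCGF6, AEBP2 and RBBP5 also passed between a pair of depletions in at least 1 alternative fit.

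**Figure D5:**
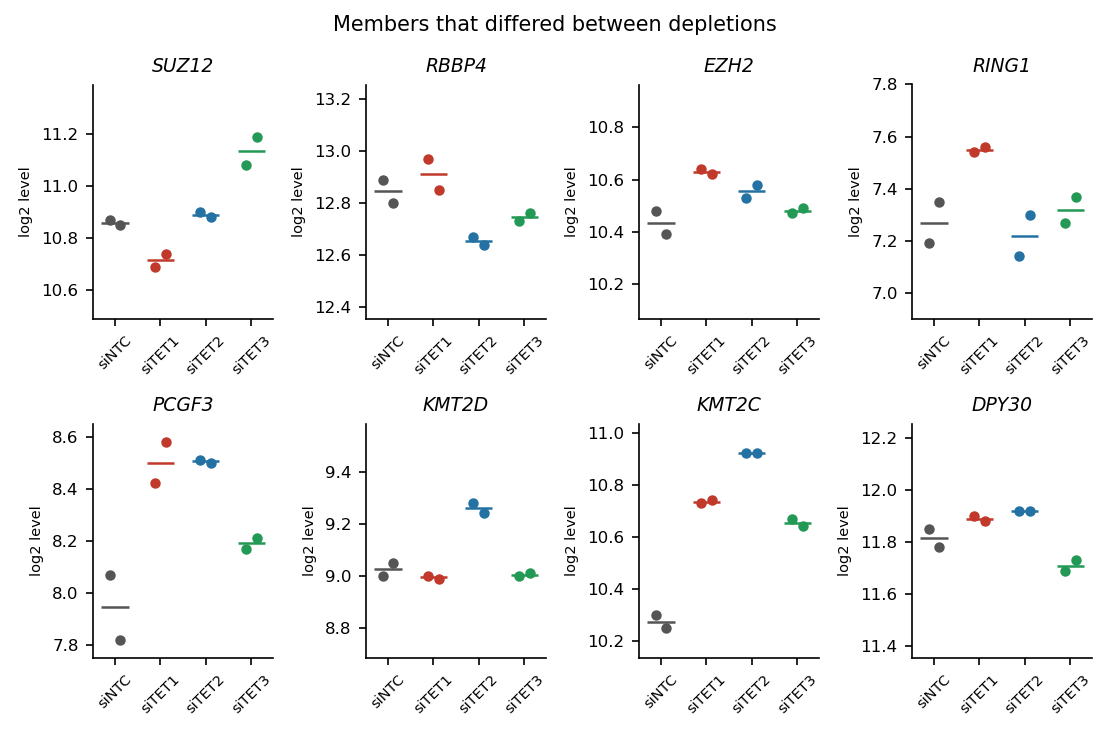
Log2 level (vertical axes, each spanning 0.9) of 8 genes that passed the test between at least 1 pair of depletions, on each array (points; bars, group means). SUZ12 runs from 10.72 in siTET1 to 11.13 in siTET3, KMT2D is high in siTET2 alone, and PCGF3 and DPY30 are lower in siTET3 than in siTET1 and siTET2.

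Partners outside the set were counted in the mean of the 3 depletions, where 16.5% of all genes were higher and 24.2% lower. Among genes above background these shares were 22.6% and 30.4%. Of 19 other PRC1 partners, 4 were higher and 9 lower, with a median change of -0.11 beside -0.026 over all genes. MAX, a DNA-binding partner of MYC and of the PCGF6 complex, fell by 0.47 (± 0.053), L3MBTL2 by 0.39 (± 0.062), and the E2F family repressor E2F6 rose by 0.41 (± 0.050). MGA, TFDP1 and CBX3, named after their values were seen because they belong to the same complex, were -0.23, -0.27 and 0.36. MGA and CBX3 lay in stretches where neighbouring genes moved alike, by -0.34 and 0.27, and with that subtracted MGA was 0.11, the opposite direction, and CBX3 0.09 and no longer past the test. Of the PCGF6 complex genes named here, PCGF6 (-0.25), MAX, L3MBTL2 and TFDP1 were lower and E2F6 and YAF2 higher, while the direction of MGA depended on whether its neighbours were subtracted. This is not a count over the whole complex. RYBP (0.00) did not pass the test, and RING1 (0.10) passed it only with its neighbours subtracted (0.28). WDR5, which also serves other complexes, was higher (0.26). The PCGF6 call was lost without siNTC replicate 1 (-0.19).

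Of 12 other subunits of the KMT2 and related SET1 complexes, 3 were higher and 5 lower. The methyltransferase SETD1B fell by 0.46 (± 0.063), the scaffold HCFC1 by 0.41 (± 0.031) and OGT, the sugar transferase that modifies HCFC1 and binds TET proteins, by 0.35 (± 0.034). Of 6 demethylases of the same histone lysines 3 were higher and 1 lower. KDM5C fell by 0.23 (± 0.042), KDM6A rose by 0.22 (± 0.052) and KDM6B by 0.16 (± 0.058). KDM6A lost its call without siNTC replicate 2 (0.10), and KDM6B in 9 alternative fits, among them the replicate block (adjusted p = 0.0510).

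Of 7 genes of the PR-DUB complex, which removes the PRC1 mark, 1 was higher and 2 lower. ASXL2 fell by 0.31 (± 0.041) and ASXL1 by 0.19 (± 0.059), the latter -0.11 without siNTC replicate 2. FOXK1 rose by 0.28 (± 0.060), but its neighbouring genes rose by 0.24 and with that subtracted it was 0.04. Of 5 further PRC2 partners LCORL rose by 0.41 (± 0.048) and YY1 fell by 0.13 (± 0.045), a call lost in 8 alternative fits. Among 25 subunits of SWI/SNF, the remodeller of the trithorax group, 5 were higher and 10 lower, with DPF1 at -0.61 (± 0.076), BRD9 at 0.40 (± 0.069) and ARID1B at -0.39 (± 0.048).

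HOX genes, the classic targets of both groups, were near background. Of 27 measured, 4 were above background in the mean of all arrays. Of these HOXD4 fell by 0.30 (± 0.088), a call lost when the change of its neighbouring genes was subtracted (-0.03) and without siNTC replicate 1 (-0.17). HOXB4 and HOXD10 were called lower but were below background on all 8 arrays, so no change is given. None was higher in the mean of the depletions by the limma test. In siTET3, 1 HOX gene was called higher against siNTC, where the largest HOX rise was 0.39. Against siTET1 and against siTET2, 1 was likewise called higher in siTET3. HOXB1 was at 5.12 and 4.96 in siNTC and 5.56 and 5.30 in siTET3, and only its siTET3 arrays lay above background.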

How the data were processed

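RNA of NCCIT cells was hybridised to Affymetrix Human Gene 1.0 ST arrays in 4 groups of 2 (siNTC, siTET1, siTET2 and siTET3), taken from the sample labels. The deposited values are log2 intensities that the authors had normalized between arrays in Partek (version, background correction and summarization: not given in the sources used here). Array medians lay between 6.22 and 6.27, and no pair of arrays was identical. Of 33297 transcript clusters, the 19460 with exactly 1 gene symbol in the platform annotation were kept, and those with several (1754) or no symbol (12083) were dropped. The brightest cluster stood for a gene with several, which gave 18417 genes.

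Group means were fitted over the 8 arrays in limma 3.58.1 under R 4.3.3 (lmFit, then eBayes with an intensity trend), with 4 residual and a median of 8.55 prior degrees of freedom. Tests were two-sided, with Benjamini-Hochberg adjustment across all 18417 genes of each comparison, and errors are standard errors of the fit with n = 2 arrays per group. Background was set at 5.208, the 95th percentile of the mean levels of 341 olfactory receptor genes, and 12749 genes (69.2%) lay above it. The number of arrays limits the precision. The procedure was checked on simulated data with known changes in the siTET1 arrays and independent noise on each array. The simulation held no shift of the shared control arrays, so it cannot speak to one.

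Every array is given for the catalytic subunits and for the 12 members with the largest changes past the test against siNTC, and up to 3 genes of each related list are named. Single values of further members, such as CBX6 and SUZ12 on every array, were added after they were seen. The members and gene lists were chosen with earlier results of these data known. Alternatives were quantile normalization, median centring, a fit of only the 4 arrays compared, no intensity trend, only genes above background, averaging the clusters of a gene, the replicate number as block, a 1.5-fold threshold, subtraction of the median change of the 24 nearest genes above background, and leaving out each array. Promoter sequences and gene order came from RefSeq (GRCh38.p14). Figures were made in matplotlib 3.10.9 (Python 3.11.15).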

Additional observations from a re-analysis of the deposited data

How the results depend on the processing

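The counts of members past the test against siNTC stayed within 1.5 times of those reported in every alternative fit. Leaving out 1 array at a time gave 17 to 22 members in siTET1, 15 to 20 in siTET2, 18 to 21 in siTET3 and 19 to 22 in their mean. Requiring a 1.5-fold change left 0, 1 and 1 in siTET1, siTET2 and siTET3, and 0 in the mean and in each comparison between depletions. With no intensity trend the comparisons between depletions gave 0 (siTET2 against siTET1), 2 and 2 (siTET3 against siTET1 and siTET2). Leaving out 1 array gave ranges of 0 to 10, 4 to 8 and 3 to 8 there. The causes were not tested.

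Subtracting the change of the 24 neighbouring genes reversed a few values. AEBP2 in siTET3 became 0.16, past the test, from -0.06. MGA became 0.12, 0.13 and 0.09 in siTET1, siTET2 and siTET3 and 0.11 in their mean, and FOXK1 in siTET2 became -0.01. Over all members and comparisons this alternative ended 18 calls, the fit with no intensity trend 29, median centring 8 and quantile normalization 2.

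The labels do not state whether arrays with the same replicate number belong together. Deviations of arrays with the same number correlated at -0.052 to 0.249 over 6 pairs of groups, which does not settle whether they were paired. With replicate number as a block (the replicate block), 22, 20, 21 and 20 members were past the test against siNTC and 8, 7 and 6 between depletions. Of the single members PCGF6 in siTET2 alone changed its side of the threshold.

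With 2 arrays in each group, small changes and absent calls carry wide intervals, and levels near background, as for CBX6 and the HOX genes, are compressed. Protein levels and histone marks were not measured on these arrays.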
